A study of Mus musculus with 12 samples.

Results

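The binding sites of MyoD were compared with those of NeuroD2 in P19 cells, a mouse embryonal carcinoma line, as mapped by chromatin immunoprecipitation followed by sequencing (ChIP-seq). All sites of both deposited lists were taken, 24935 for MyoD and 31458 for NeuroD2, which together make 56393 of the 120275 sites in the 5 lists of the series. The MyoD cells were transduced with MyoD and precipitated with MyoD antibodies 6196 and 6975. The NeuroD2 cells were transduced with NeuroD2 and precipitated with NeuroD2 antibodies 1165 and 1240. Both groups were infected in medium with polybrene at 8 µg/ml and were cultured in a neuronal medium from 48 h on, per the labels' protocols, so MyoD too was mapped in cells kept under neuronal conditions. Each group had 2 libraries and a single list of sites, so there is no spread between replicates, sites are not replicates of a condition, and no p-value is given. The 95% intervals, given in parentheses, are exact binomial (Clopper-Pearson) intervals that cover counting error only. The protein, its antibodies and any batch cannot be told apart in this design. The depth of sequencing is not known from the lists, and the untransduced control cells were not analysed here.

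MyoD and NeuroD2 are basic helix-loop-helix (bHLH) transcription factors. The basic part contacts an E-box, a short DNA motif with the consensus CANNTG, and the helix-loop-helix part pairs the factor with a common partner, an E-protein. MyoD directs cells to skeletal muscle and NeuroD2 acts in the differentiation of neurons, and factors of this family are known to differ in the central bases of the E-boxes they prefer. The series asks how the choice of binding sites relates to the lineage that such a factor directs. The DNA under the sites and the genes near them were not analysed here, so the results concern where the sites lie, how wide they are and how they are grouped.

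Most sites of each list lay where the other list had none, and the sites in both lists were nearly co-centred. Absence from a list is not absence of binding, since signal outside the listed sites was not examined. By the rule of at least 1 common base, 6420 MyoD sites met a NeuroD2 site, which is 25.7% (25.2 to 26.3%), and 6424 NeuroD2 sites met a MyoD site, which is 20.4% (19.98 to 20.9%). In bases, 2.15 Mb were common to both lists, which is 21.6% of the length of the MyoD list and 17.8% of that of the NeuroD2 list. The overlaps formed 6494 pairs, of which 6216 joined a single MyoD site to a single NeuroD2 site. In the others, 72 MyoD sites overlapped more than 1 NeuroD2 site and 69 NeuroD2 sites overlapped more than 1 MyoD site, up to 3 in either direction.

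In the 6216 one-to-one pairs the centres of the MyoD and NeuroD2 sites lay a median of 39.5 bp apart, with quartiles of 18 and 82.5 bp. The centres were within 25 bp in 34.9% of pairs, within 50 bp in 59.1% and within 200 bp in 93.7%. In 3837 pairs, or 61.7%, the shorter site lay wholly inside the longer one. The pairs shared a median of 315.5 bases, and only 94 of them (1.51%) shared less than 50% of the shorter site. Few sites stood close to the limit that separates shared from exclusive. At that limit, 7 pairs overlapped by fewer than 20 bases, and outside the limit 142 MyoD-only and 153 NeuroD2-only sites lay within 100 bp of a site of the other list without touching it.

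**Figure D1:**
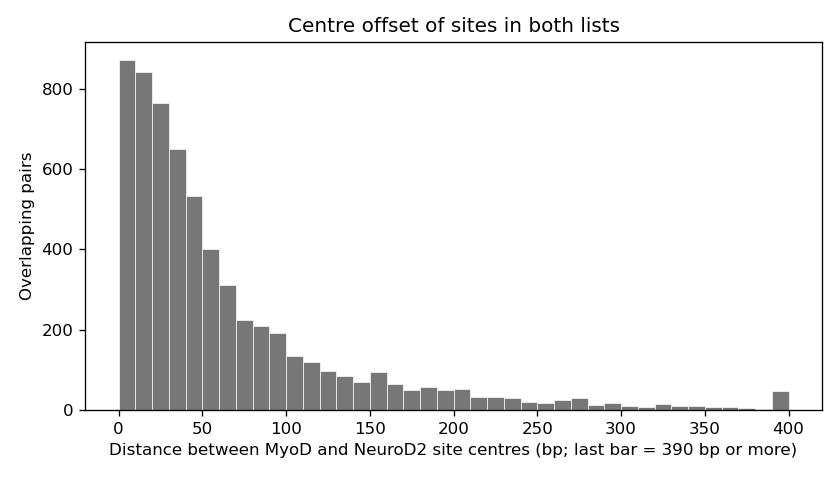
Distance between the centres of the MyoD and the NeuroD2 site (x axis, bp, bars of 10 bp) in the 6216 one-to-one pairs (y axis, number of pairs). The counts are highest at the left, with 872 pairs under 10 bp, and the median is 39.5 bp.

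Sharing increased with the value of a site in its own list, and more so for MyoD. The authors gave each site a value, read here as −log10 of a p-value, and it served for ranks inside 1 list and nothing else. Over the deciles of the MyoD list in ascending order of value, the share that overlapped NeuroD2 was 17.0, 16.0, 19.3, 19.7, 20.5, 23.0, 26.5, 30.2, 36.0 and 49.2%. For NeuroD2 sites that overlapped MyoD, the deciles gave 14.0, 15.0, 14.9, 17.7, 17.3, 20.8, 20.6, 24.0, 26.1 and 33.9%. These stand beside 25.7% and 20.4% over the whole lists. With lists of equal length the top deciles gave 44.8% for MyoD and 35.1% for NeuroD2, and the lowest 13.9 and 14.6%. Even among the sites with the highest values many were in 1 list alone: 1266 of the 2493 MyoD sites in the top decile and 2079 of the 3145 NeuroD2 sites in the top decile had no overlap. Among the 1000 sites with the highest values, 540 MyoD sites and 399 NeuroD2 sites were in both lists. Among the first 100 the counts were 56 for MyoD and 36 for NeuroD2. That gap was smaller, at 51 for MyoD and 45 for NeuroD2, without windows of 100 kb that held 10 or more sites of either list. Among the first 1000 the counts without these windows were 511 for MyoD and 384 for NeuroD2.

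**Figure D2:**
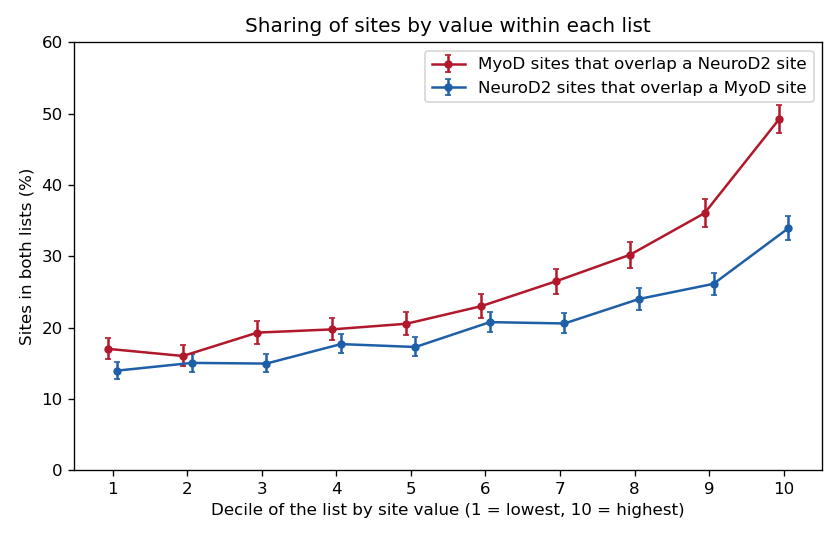
Percentage of sites in both lists (y axis) by decile of the list, ordered by value (x axis, 1 lowest, 10 highest), for MyoD sites and for NeuroD2 sites; error bars are exact 95% binomial intervals. Both curves end well above where they start, at 49.2% for MyoD and 33.9% for NeuroD2 in the top decile.

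The values of a shared site in the MyoD and the NeuroD2 list were only weakly related. Across the 6216 one-to-one pairs Spearman's rho between the MyoD and the NeuroD2 values was 0.14. It describes pairs at the same locus, whose widths also go with their values. Of the 1179 pairs whose MyoD site was in the top decile of its list, 288 (24.4%) had a NeuroD2 site in the top decile, and 322 (27.3%) had one in the lower 50% of the NeuroD2 list. Seen from the other side, 1017 pairs had a NeuroD2 site in the top decile; the MyoD site was in the top decile in 28.3% of these and in the lower 50% in 30.6%. As a baseline, 1017 of all 6216 pairs had a top-decile NeuroD2 site and 1179 a top-decile MyoD site. Where the NeuroD2 site was in the lowest decile, the MyoD sites had a median rank percentile of 56.2, on a scale that runs to 100 for the highest value. The median MyoD rank percentile was 65.2 over all one-to-one pairs, and 73.3 where the NeuroD2 site was in the top decile.

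The 5 sites below stood near the top of both lists. The first lay on chromosome 6, as a MyoD site from 116620202 to 116621576 with a value of 188.2 and a NeuroD2 site from 116620147 to 116621790 with an infinite value (mm9, 1-based, as are all coordinates here). On chromosome 1 a MyoD site from 93310572 to 93311095 with a value of 237.3 overlapped a NeuroD2 site from 93310591 to 93311200 with a value of 163.1. The third was on chromosome 16, from 17208725 to 17209667 for MyoD and from 17208760 to 17209431 for NeuroD2, with values of 227.5 and 160.8. The fourth was on chromosome 12, where the MyoD site began at 112902556 and the NeuroD2 site at 112902474, and the fifth on chromosome 3, with starts at 144306274 and 144306405. Their centres were 19 to 100.5 bp apart, and all 5 were also in the lists of the 3 chimeric proteins of the series, which are MyoD with the bHLH domain of NeuroD2 and its WC and WCS mutants.

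Other overlapping sites were near the top of one list and at the bottom of the other. A MyoD site of 430 bp on chromosome 19, from 6445985 to 6446414, had a value of 261.7 and wholly contained a NeuroD2 site of 219 bp with a value of 5.026. A second on the same chromosome, from 7132103 to 7132515, and one on chromosome 11, from 102236473 to 102236889, had MyoD values of 190.9 and 153.7 over NeuroD2 sites that also had 5.026. In the opposite direction a MyoD site of 199 bp on chromosome 16, from 72554010 to 72554208, had a value of 5.036 inside a NeuroD2 site of 660 bp with a value of 111.1. A MyoD site on chromosome 2, from 79261980 to 79262154, had 5.036 against 75.55 for NeuroD2, and one on chromosome 10, from 75106507 to 75107019, had 5.088 against 82.33. In 5 of these 6 pairs the centres were within 28 bp, and in the pair on chromosome 10 they were 260.5 bp apart. The low-valued partner was the narrower site in all 6.

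Median site widths differed little between the whole lists, but more, and in opposite directions, in the lowest and top deciles of value. Over the whole lists the median width was 358 bp for MyoD sites (quartiles 307 and 437 bp) and 341 bp for NeuroD2 sites (quartiles 273 and 434 bp). In the lowest decile the medians were 273 bp for MyoD and 229 bp for NeuroD2, and in the top decile 477 and 560 bp. The longest MyoD site had 1947 bp, whereas NeuroD2 sites ran from 53 to 16023 bp. The shortest MyoD site was longer than 38 of the NeuroD2 sites. Sites under 200 bp numbered 104 (0.417%) in the MyoD list and 596 (1.89%) in the NeuroD2 list, and sites over 1 kb numbered 208 (0.834%) and 331 (1.05%). The difference of 17 bp between the medians reversed when sites of low value were left out. MyoD minus NeuroD2 was −8 bp with the NeuroD2 list shortened by value to the 24935 sites of MyoD, and −18 bp with the upper 50% of each list by value.

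In both lists the sites in both were wider than the exclusive ones. MyoD sites in both lists had a median of 390 bp and MyoD-only sites 349 bp, and for NeuroD2 the medians were 373 and 334 bp. Width also rose with value, with Spearman's rho of 0.63 across MyoD sites and 0.79 across NeuroD2 sites, and sites in both lists have higher values. Within deciles of value the contrast was smaller in all but the top decile of MyoD. In the lowest decile, MyoD sites in both lists had a median of 280 bp against 271 bp for MyoD-only sites, and NeuroD2 sites 235 bp against 229 bp. In the third decile of the NeuroD2 list it vanished, at 271 and 272 bp. In the top decile it was 516 against 446 bp for MyoD and 581 against 551 bp for NeuroD2, so the gap of 70 bp at the strongest MyoD sites exceeded the 41 bp over the whole list. An overlap of 1 base also favours wide sites, and its part in the width contrast was not tested.

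Few exclusive sites lay within 1 kb of a site of the other factor, and most lay within 100 kb of one. The share of random positions that lie this close to a site was not calculated, so these shares have no background beside them. The distance from a MyoD-only site to the nearest NeuroD2 site was a median of 16419 bp, and 1437 of 18515 (7.76%) lay within 1 kb, 6964 (37.6%) within 10 kb and 16752 (90.5%) within 100 kb. The corresponding median for NeuroD2-only sites was 21692 bp, with 1519 (6.21%) within 1 kb, 7851 (32.1%) within 10 kb and 20461 (83.6%) within 100 kb, of the 24464 on chromosomes that held MyoD sites. MyoD sites were the fewer, and fewer targets make longer distances. With lists of equal length the shares within 10 kb were 32.6% for MyoD-only sites and 32.2% for those of NeuroD2 alone. The strength of an exclusive site hardly moved this proximity: 37.97% of MyoD-only sites in the lowest decile and 37.8% in the top decile had a NeuroD2 site within 10 kb, and for NeuroD2-only sites the shares were 29.7% and 31.4%.

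Within their own lists NeuroD2 sites stood closer together than MyoD sites, but not when the NeuroD2 list was shortened by value. The nearest site of the same list was a median of 11090 bp away for MyoD and 9088 bp for NeuroD2. Of the MyoD sites 47.7% had a neighbour of the same list within 10 kb and 14.6% within 1 kb, against 51.9% and 17.4% of NeuroD2 sites. With the NeuroD2 list shortened to the same length its median was 11382 bp, 47.0% lay within 10 kb and 14.9% within 1 kb, and the difference of the medians, MyoD minus NeuroD2, was −292 bp, with −931 to 164 bp from the exact binomial intervals of both medians, a range that includes 0. Sites in both lists were less isolated than exclusive ones. The median distance to a site of the same list was 8636 bp for MyoD sites in both lists against 12062 bp for MyoD-only sites, and 8144 bp against 9393 bp for NeuroD2. Sites of high value also had closer neighbours, with medians of 13007.5 bp in the lowest and 7517 bp in the top decile of MyoD, and 10657 and 5612 bp in those of NeuroD2.

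**Figure D3:**
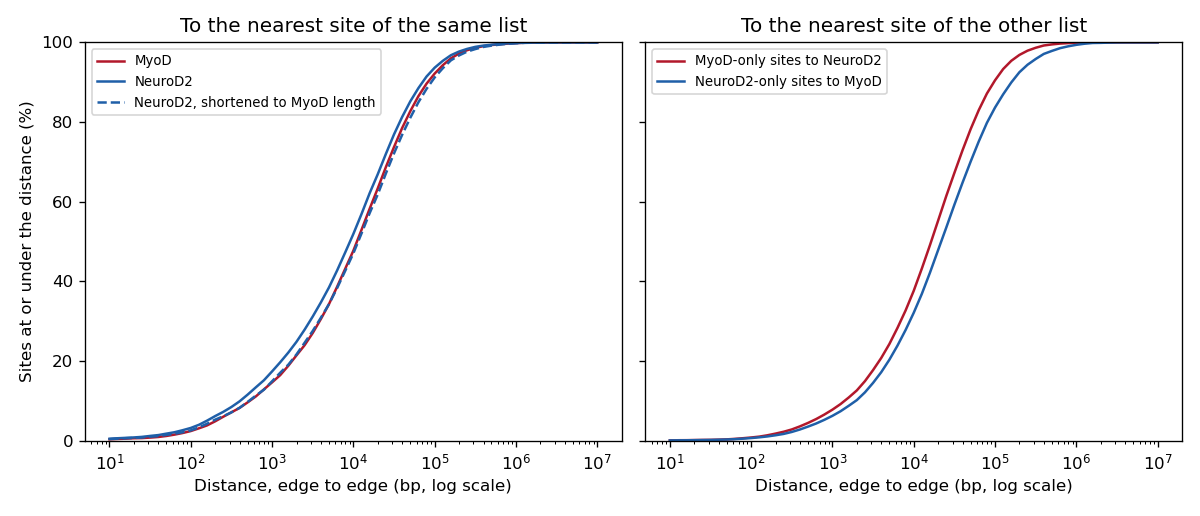
Cumulative percentage of sites (y axis) with the nearest site of the same list (left) or of the other list (right) at or under a distance (x axis, bp, log scale). On the left the shortened NeuroD2 list (dashed) runs along the MyoD curve, with a median of 11090 bp for MyoD and 11382 bp for the shortened NeuroD2 list; on the right the MyoD-only curve reaches 37.6% and the NeuroD2-only curve 32.1% at 10 kb.

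Both factors had clusters of sites, but the very large ones were in the NeuroD2 list. A cluster is a run of 3 or more sites of 1 list with gaps of at most 10 kb. MyoD had 1547 clusters, which held 5855 or 23.5% of its sites (22.96 to 24.0%), and NeuroD2 had 2166, which held 9287 or 29.5% (29.0 to 30.03%). Up to 7 sites the lists were alike in form, with a median of 3 sites a cluster and 95% of clusters at 7 or fewer in both. The MyoD list had 11 clusters of 10 or more sites, the largest with 16, whereas the NeuroD2 list had 45, of which 20 held 20 or more sites and 913 sites in all. The difference of −6.04 points, MyoD minus NeuroD2, was −1.18 points with lists of equal length. It was 1.35 points, with MyoD the higher, when 100 kb windows crowded with 10 or more sites of either list were left out as well, an alternative chosen after seeing the data.

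Most clusters of a factor did not coincide with a cluster of the other. Of the MyoD clusters 461 (29.8%) overlapped a NeuroD2 cluster, and 465 NeuroD2 clusters (21.5%) overlapped a MyoD cluster. No NeuroD2 site lay in 439 MyoD clusters (28.4%), and no MyoD site in 855 NeuroD2 clusters (39.5%). Clusters made wholly of sites in both lists were rare, 46 for MyoD and 47 for NeuroD2. MyoD sites in clusters were in both lists more often, at 30.6%, than those outside clusters, at 24.3%. They also had higher values, with medians of 11.7 against 10.4, and were wider, at 378 against 352 bp. The same held for NeuroD2, at 11.3 against 10.2 and 361 against 333 bp. The part of value and width in the sharing of clustered sites was not tested. For NeuroD2 the share of sites in both lists was 21.4% inside clusters, 1.43 percentage points above that outside, but it varied by size. It was 22.5% in clusters of 3, 28.3% in clusters of 7, 22.1% in those of 8 or 9 and 20.3% in those of 10 to 19. In clusters of 20 or more it was 3.18%, or 29 of the 913 sites. MyoD clusters of 10 or more sites had 56 of 133 sites in both lists, or 42.1%.

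**Figure D4:**
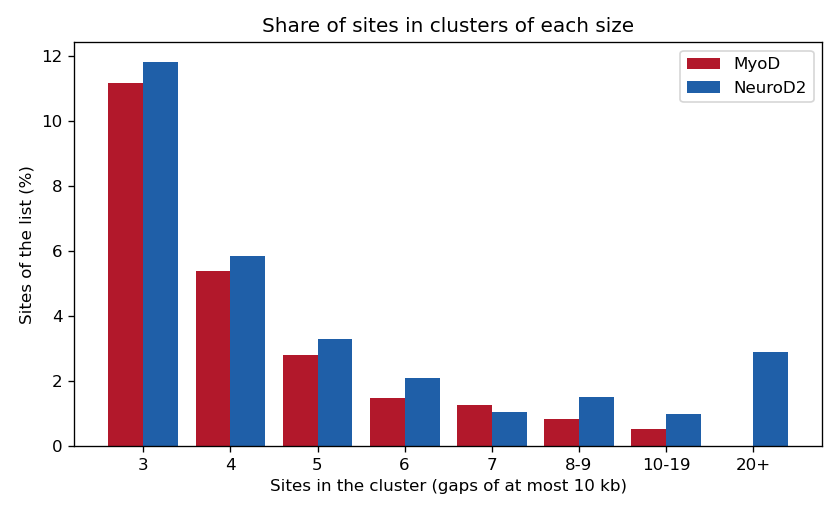
Share of all sites of a list (y axis, %) that lie in clusters of a given number of sites (x axis), for MyoD and NeuroD2. The bars are of similar height up to 7 sites, and the last, clusters of 20 or more, holds 0 MyoD sites and 913 NeuroD2 sites (2.90%).

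The largest MyoD clusters also held NeuroD2 sites. On chromosome 2, 16 MyoD sites lay from 93266004 to 93318093, 8 of them in both lists, with 5 in the top decile of MyoD values. A second cluster on chromosome 2, from 167456673 to 167534828, had 14 MyoD and 2 NeuroD2 sites. The next had 13 MyoD and 5 NeuroD2 sites, on chromosome 1 from 74817248 to 74872441. It tied in number with 1 on chromosome 5, from 111625011 to 111663908, which had 13 MyoD and 8 NeuroD2 sites. In these 4 clusters the chimera had 5 to 7 sites, WC 3 to 8 and WCS 4 to 7.

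The largest NeuroD2 clusters were of another kind. On chromosome 8, 7 MyoD and 122 NeuroD2 sites lay in 162.9 kb, from 19871527 to 20034388. A pair of clusters on chromosome 5, starting at 14899923 and 15112572 and ending at 15062651 and 15224130, held 5 and 0 MyoD sites, against 99 and 77 NeuroD2 sites. The NeuroD2 sites there had median values of 15.2, 17.1 and 12.3, beside 11.3 over all NeuroD2 sites in clusters. Of them 14, 15 and 9 were in the top decile of NeuroD2 values, which held 12.9% of all NeuroD2 sites in clusters. The next 3 clusters by number of sites had lower medians, 9.41, 6.26 and 7.82, with 1, 0 and 0 sites in the top decile. In the 3 largest stretches the WC list had 92, 91 and 68 sites, the WCS list 97, 91 and 72, and the chimera list 13, 17 and 11. All 3 of these lists came from the MyoD antibodies. The MyoD and chimera lists hold no site on chromosome X and none as short as the shortest sites of the other lists, so a different filter and the protein cannot be told apart here. Unique mapping of reads in these stretches was not tested.

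On a coarser scale a small majority of the windows that held any site held sites of both factors. Windows without a site of either list were not counted, so these shares are not shares of the genome. Of 14688 windows of 100 kb with a site of either list, 7722 (52.6%) held both, 2646 (18.0%) MyoD alone and 4320 (29.4%) NeuroD2 alone. In 3371 of the 7722 windows with both (43.7%) no MyoD site overlapped a NeuroD2 site. MyoD led by 5 or more sites in 230 windows (1.57%), and NeuroD2 in 525 (3.57%). At most 15 MyoD sites or 74 NeuroD2 sites fell into 1 window.

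The factors spread over the autosomes in much the same way. MyoD had 6.36 to 16.3 sites per Mb of the length spanned by both lists, and NeuroD2 8.31 to 19.8. In both lists chromosome 14 was the sparsest autosome and chromosome 11 the densest. Over the 19 autosomes Pearson's r of the densities was 0.94 and Spearman's rho 0.91, which describes regional density that both factors share and is not a test of either. NeuroD2 had more sites on every autosome, with 24935 MyoD and 30888 NeuroD2 sites in all, or 0.807 MyoD sites per NeuroD2 site.

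That ratio varied by 1.30 times between autosomes. It was highest on chromosome 15, at 0.919 (0.849 to 0.994), with 1199 MyoD and 1305 NeuroD2 sites, on chromosome 7, at 0.913 (0.848 to 0.984), and on chromosome 17, at 0.902 (0.834 to 0.974). It was lowest on chromosome 1, at 0.709 (0.665 to 0.756), with 1596 MyoD and 2251 NeuroD2 sites, on chromosome 16, at 0.732 (0.665 to 0.805), and on chromosome 4, at 0.736 (0.692 to 0.783). The intervals of neighbours in this order overlap. Those of 4 autosomes lay below the overall ratio, those of 6 above it and those of 9 included it. Part of the low value of chromosome 1 lay in dense windows, since the ratio there was 0.777 (0.726 to 0.832) without the 100 kb windows that held 10 or more sites of either list. For chromosome 4 it was then 0.798, for chromosome 16 it was 0.744 and for chromosome 15 it was 0.928. Chromosome 13 was then the lowest, at 0.742, and chromosomes 6, at 0.755, and 14, at 0.763, also lay below chromosomes 1 and 4, while chromosome 15 remained the highest.

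**Figure D5:**
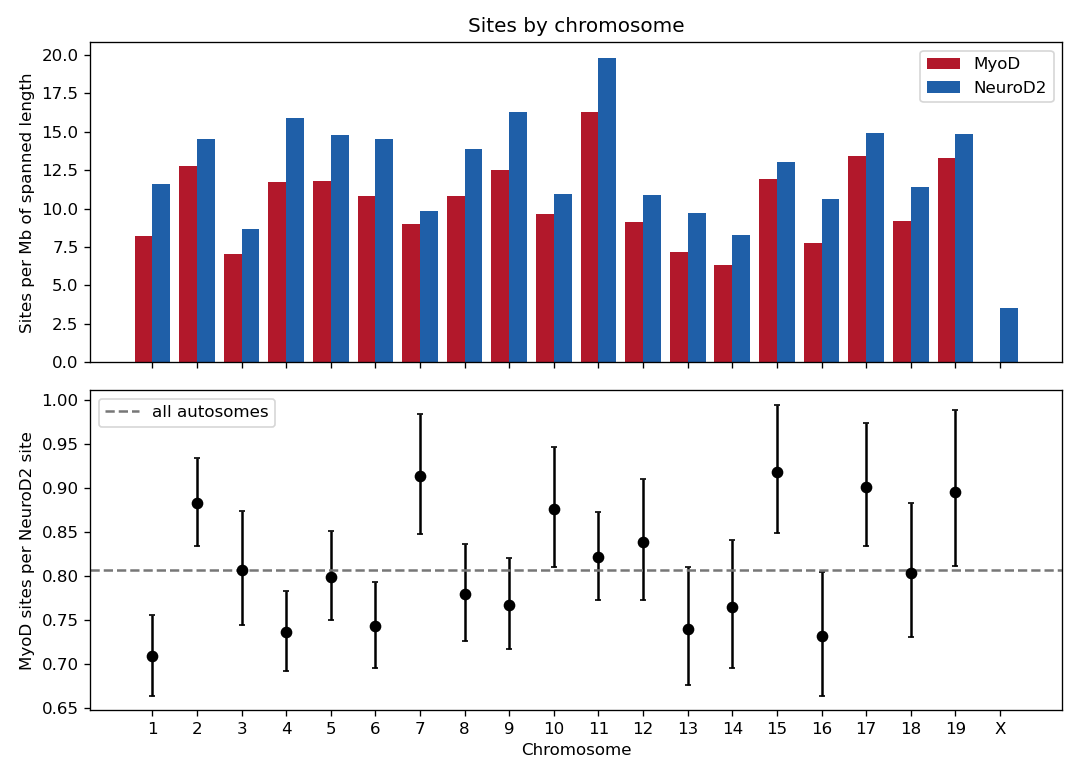
Upper panel: MyoD and NeuroD2 sites per Mb of spanned length on each chromosome. Lower panel: MyoD sites per NeuroD2 site on each autosome with exact 95% binomial intervals, and the ratio over all autosomes, 0.807, as a dashed line. Chromosome 11 is the densest for both factors, and chromosome X has NeuroD2 sites alone.

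The share of sites in both lists also varied by chromosome. For MyoD it was lowest on chromosome 14, at 20.6%, and highest on chromosomes 6 and 17, at 28.2% on both, and for NeuroD2 it was lowest on chromosome 14, at 15.6%, and highest on chromosome 17, at 25.9%. Chromosome X held 0 MyoD and 570 NeuroD2 sites, or 1.81% of the NeuroD2 list. The chimera list held no site there either, and a different filter of the lists and the protein cannot be told apart. On the autosomes alone, 20.8% of NeuroD2 sites were in both lists. The X sites were ordinary in value and width, with a median value of 11.0 and a median width of 334 bp, but 255 of them lay in clusters and their median spacing was 5536.5 bp, against 9088 bp over the whole NeuroD2 list. Along the autosomes both lists were denser towards the end with high coordinates. In 5 equal parts of the spanned length, from low to high coordinates, the MyoD sites fell as 16.8, 16.9, 16.9, 21.7 and 27.7%, and the NeuroD2 sites as 17.2, 17.2, 17.1, 21.3 and 27.3%. The share of MyoD sites in both lists was 23.7, 24.2, 25.6, 27.7 and 26.5% in these parts, and that of NeuroD2 sites 18.9, 19.2, 20.5, 22.7 and 21.7%.

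Outside dense windows, the exclusive sites with the highest values differed in how far the chimeric proteins held them. All 5 MyoD-only sites had infinite values and were in the chimera list. Besides 3 on chromosomes 15, 4 and 6 that begin at 103000056, 134356374 and 115073011, they were chromosome 11 from 77275684 to 77276367, 28650 bp from the nearest NeuroD2 site, and chromosome 6 from 128186494 to 128187118, 1538 bp from one. The site at 115073011 had a NeuroD2 site only 450 bp away. The WC list lacked the site at 134356374, and the WCS list lacked that site and those at 115073011 and 77275684. The 5 NeuroD2-only sites also had infinite values, and none was in a list of the chimera or its mutants. They lay on chromosome 15 from 74915805 to 74917630, on chromosome 18 from 3005119 to 3006530, on chromosome 2 at 98506245 to 98507643 and at 98502240 to 98503300, and finally on chromosome 12 from 75904745 to 75905643. Those on chromosome 2 were over 2 Mb from any MyoD site, at 2410862 and 2415205 bp. The site on chromosome 18 had another NeuroD2 site 16 bp away, and those on chromosome 2 had one at 739 and 377 bp. Unique mapping of reads at the 5 NeuroD2-only sites was not tested. Signal there in the untransduced control cells was not examined either. Among all sites with an infinite value, 11 of 11 MyoD sites and 5 of 34 NeuroD2 sites were in a list of the chimera or its mutants.

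The rest of the strong NeuroD2-only sites did not share this isolation. At least 1 of the 3 chimeric lists held 859 of the 1266 MyoD-only sites in the top decile (67.9%) and 1913 of the 2079 NeuroD2-only sites there (92.0%). In the lowest decile the shares were 13.1% for MyoD-only sites and 31.8% for the NeuroD2-only class. Sites in both lists were held more often than exclusive sites of the same decile. Their shares in the top decile were 98.0% for MyoD and 99.8% for NeuroD2, and in the lowest decile 79.95% for MyoD and 74.0% for NeuroD2. Over all deciles, 90.4% of the sites in both lists were in at least 1 chimeric list on either side, against 27.8% for the MyoD-only class and 58.4% for the NeuroD2-only class.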

How the data were processed

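ChIP-seq libraries of P19 cells were processed by the submitters with CASAVA 1.8.2 and BWA 0.7.5 on build mm9, per the submitters' processing notes; how peaks were called, filtered or pooled is not given in the sources used here. The deposited lists give a start, an end and a value for each site. The authors' value looks like −log10 of a p-value by its range, since no header names it, and served only to rank sites within a list. Infinite values were placed first. Ties were ordered by width for the highest sites and the shortened lists, and by position in the genome for deciles. Rank percentiles gave tied sites their mean rank. Sites were compared by an overlap of at least 1 base; distances are edge to edge. Deciles divide a list by value. A planned rule named the 5 sites highest in both lists, the 5 strongest exclusive sites of each list outside windows of 100 kb with 10 or more sites, the 3 overlapping sites most unequal in rank in each direction, the 3 largest clusters of each list, and the 3 autosomes with the highest and the lowest ratios. The members, lists and rules were chosen with earlier results of these data known. Planned results on E-boxes and on protein sequences were not run, as they need sequence of the build and a table of proteins. The calculations of overlaps, shared bases, distances, clusters and joined sites were tested on simulated data, and the others were not. The software was scipy 1.17.1, numpy 2.4.6 and pandas 2.3.3 under Python 3.11.15, with matplotlib 3.10.9 for plots.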

Additional observations from a re-analysis of the deposited data

How the results depend on the processing

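No paired analysis was possible because each group has 1 list for both libraries, and no library could be left out for the same reason. Values follow in the order MyoD, NeuroD2. The shares of sites in both lists were 25.7% and 20.4% and the Jaccard index (common bases over bases of either list) 10.8%. They stayed between 20.3 and 26.3% for MyoD and between 16.1 and 22.0% for NeuroD2 in the 7 alternatives. An overlap of at least 50% of the shorter site moved the Jaccard index alone, to 10.7%. With centres at most 100 bases apart the shares were 20.3 and 16.1% and the index 8.35%. Exclusive sites within 10 kb of the other list made up 41.9 and 35.7%, and the shares in both lists were 36.9 and 26.3% in the top decile and 14.1 and 10.8% in the lowest. With only the upper 50% of each list by value, the shares were 21.4 and 16.9%, the index 8.90%, proximity within 10 kb 23.9 and 19.8%, the top decile 40.4 and 27.1% and the lowest 13.4 and 12.7%. The lists then had 432 and 646 clusters. MyoD minus NeuroD2 was −18 bp in width, the opposite direction, 4160 bp in spacing and −4.64 points in clusters, and MyoD sites in both lists were 49 bp wider than MyoD-only sites.

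Equal length gave shares of 22.1 and 22.0%, an index of 10.4%, 32.6% of MyoD-only sites within 10 kb of NeuroD2, and MyoD shares of 44.8% in the top and 13.9% in the lowest decile. MyoD minus NeuroD2 was −8 bp in width and −292 bp in spacing, both reversed in sign though the interval of the spacing difference (−931 to 164 bp) includes 0, and −1.18 points in clusters, and the ratios per autosome ran from 0.899 to 1.14. When dense windows were removed as well, a choice made after seeing the data, these differences were −7 bp, −1621 bp and 1.35 points, all reversed from the full lists. Without dense windows alone the MyoD share was 24.5%, the index 10.5%, proximity 35.2 and 29.6%, the top decile of MyoD 47.2%, the spacing difference 1261 bp and the cluster difference −3.31 points. Autosomes with a common range of widths, up to 2000 bases, moved only the index, to 11.0%. Joining sites within 500 bases gave 26.3 and 21.2% and a cluster difference of −4.34 points. Gaps of at most 5 kb gave 868 and 1316 clusters, and 25 kb gave 2503 and 3256. A minimum of 5 sites left 283 and 467 clusters and a difference of −4.93 points. Proximity within 1 kb was 7.76 and 6.21%, and within 100 kb 90.5 and 83.6%. Of 119 values recomputed, 56 stayed within the counting interval of the full lists, or within 1.5 times for a number of clusters, 57 moved beyond it and 6 reversed. Settings that shorten a list by value change its length and its share of sites of low value together, and the causes of the shifts and reversals were not tested.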

Other observations

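One large NeuroD2 cluster differed from the 3 largest in which other lists held it. It was chosen after its values were seen. On chromosome 1 from 90108439 to 90207223, 2 MyoD and 67 NeuroD2 sites lay in 98.8 kb, with 5 chimera, 1 WC and 0 WCS sites. Its NeuroD2 sites were wide and of low value, with a median width of 565 bp, a median value of 6.26 and none in the top decile, whereas the 3 largest clusters had median widths of 360 to 376 bp.

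Among the longest stretches without sites, that on chromosome 7 was largely common to both factors. No MyoD site lay there from 39056641 to 46696541, which is 7.64 Mb and held 4 NeuroD2 sites. No NeuroD2 site lay there from 39189719 to 46558467, which is 7.37 Mb. Besides chromosome X, which has none, the longest stretch without MyoD sites was 8.92 Mb on chromosome 14, from 106319594 to 115237278, and held 5 NeuroD2 sites. The next, 8.72 Mb on chromosome 3, held 11 NeuroD2 sites. A stretch on chromosome 1 without NeuroD2 sites was 7.15 Mb, from 108714248 to 115866424, and held 3 MyoD sites. Whether these stretches could be mapped was not tested.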
